A study of Danio rerio with 10 samples.

Results

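The microRNAs of sorted zebrafish keratinocytes, the epithelial cells of the skin, are described here against those of whole embryos. The small RNA table of the study lists 431 microRNA hairpin entries. Of these, 206 were compared, because they reached 10 CPM in the keratinocyte library or in the mean of whole embryo. CPM is an entry's count divided by the library total and multiplied by 1e+06. The keratinocyte sample is 1 library from fish of the AB background, listed as wild type, at 3 days post fertilization. These fish carried a GFP reporter in the apical keratinocytes, the library is labelled Krt4+, and the labelled cells were isolated by fluorescence-activated cell sorting. Whole embryo is represented by 3 libraries of the same background, genotype and age, and the labels state no reporter line for them. Neither the purity of the sort nor the number of pooled animals is given in the labels. The study set keratinocytes and neutrophils against the whole embryo to learn which microRNAs each cell type holds.

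MicroRNAs are short RNAs cut from hairpin precursors, and they lower the output of messenger RNAs that carry matching sites. Hairpins that lie close together are often cut from 1 primary transcript. In epithelial cells of mammals, miR-205 and the miR-200 family repress the Zeb transcription factors, which drive loss of epithelial features, and miR-203 lowers p63 as keratinocytes differentiate. The miR-183, miR-96 and miR-182 cluster is best known from sensory cells such as hair cells and photoreceptors. In larval zebrafish, krt4 is expressed in the superficial layer of the skin.

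The keratinocyte library held 86279 counts, and the whole-embryo libraries held 1170260, 1163747 and 867672 counts. Replicate 1 comes first in this order, followed by the 2 whole-embryo libraries whose column headers lack a replicate number. In keratinocytes 1 count equals 11.6 CPM, and a count of 0 allows up to 34.8 CPM, taken as 3 counts. At least 1 count was found for 173 entries in keratinocytes, against 257, 254 and 253 in whole embryo. The second unnumbered library stood apart from the other whole-embryo libraries: chi-square per degree of freedom was 211 and 224 against them, and 33.1 between those 2. With 1 keratinocyte library there is no replicate error on that side and no test. Each ratio below is the keratinocyte CPM over the mean CPM of whole embryo, with the exact 95% Poisson interval of the keratinocyte count, which covers counting error only. Fewer cells of a type and less of an RNA per cell cannot be told apart in such bulk libraries.

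A single microRNA dominated the keratinocytes. The entry dre-mir-182 (chromosome 4, 15075665 to 15075732, plus strand, GRCz11) took 43.8% of the keratinocyte counts (95% exact binomial interval 43.5% to 44.1%), against 13.9, 15.1 and 11.2% in the whole-embryo libraries. Its ratio was 3.27 (3.24 to 3.30), and the keratinocyte share lay above all 3 whole-embryo libraries. Second in keratinocytes was dre-mir-10c, a hairpin of a Hox gene cluster, with 14.8%, against 16, 16 and 19.3% in whole embryo. The skin microRNA dre-mir-205 (chromosome 23, 33290273 to 33290361, plus strand) took 4.42%, against 1.73, 2.17 and 3.30% in whole embryo. The 10 most abundant entries made up 85.5% of the keratinocyte counts, against 77.1%, 76.2% and 76.5% for the 10 leading entries of each whole-embryo library. So the 10 leading entries together took a larger share in keratinocytes, and that share includes the 43.8% of dre-mir-182.

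**Figure D1:**
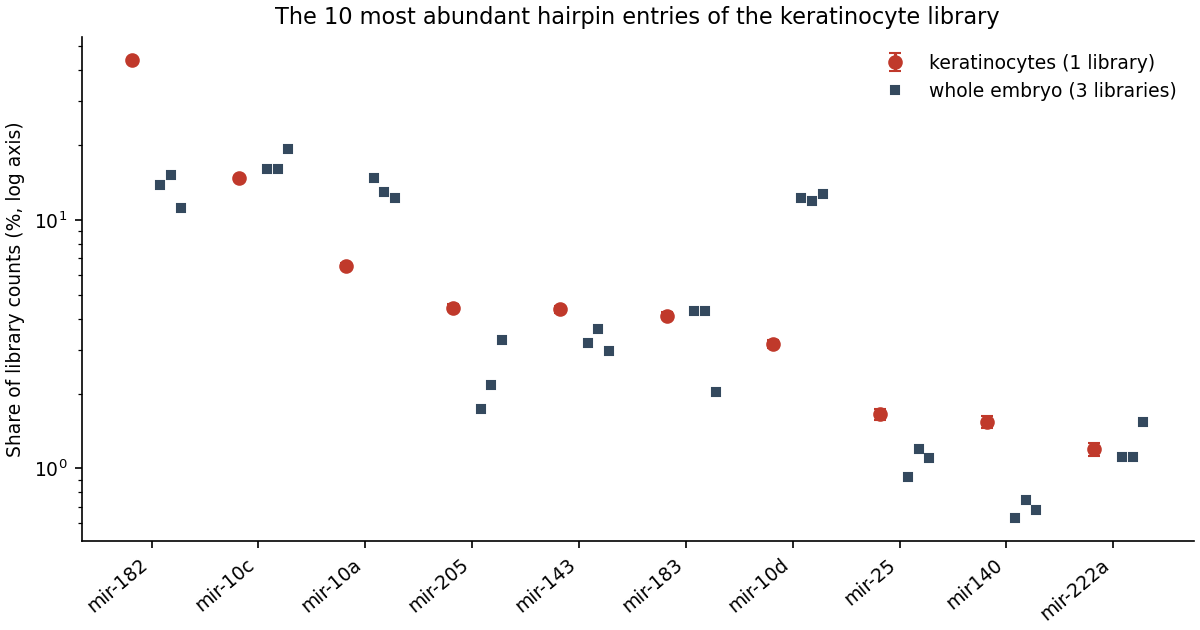
Share of library counts in percent (log axis) for the 10 most abundant hairpin entries of the keratinocyte library; circles are the 1 keratinocyte library with its 95% exact binomial interval, squares are the 3 whole-embryo libraries. The entry dre-mir-182 stands at 43.8% in keratinocytes, above all 3 whole-embryo libraries, while dre-mir-10d stands at 3.18%, below all 3.

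Because CPM values are shares of 1 total, the large share of dre-mir-182 lowers the CPM of every other keratinocyte entry. The ratio and call of each entry were therefore also computed with dre-mir-182 left out of every total. Leaving it out multiplies the ratios by 1.54 at the median (a shift of 0.62 on the log2 scale). Summed levels of lists and families were computed only with it in the total. The median ratio over the 206 compared entries was 0.656 with all entries in the total and 1.01 without dre-mir-182. These medians take the 33 entries with 0 keratinocyte counts at their limit of 3 counts. With those entries at 0, the first median was 0.390.

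An entry was counted as higher or lower in keratinocytes when its ratio reached 4-fold and its keratinocyte CPM was above or below every whole-embryo library. An entry with 0 keratinocyte counts was counted as lower only if its limit of 3 counts was still 4-fold below. By this rule 12 entries (5.83%) were higher and 49 (23.8%) were lower in keratinocytes. Without dre-mir-182 in the totals, 14 (6.8%) were higher and 31 (15%) were lower. The 14 include dre-mir-182 itself, which was then set against the counts of all other entries. All 12 higher and 31 of the lower entries were shared by both ways of scaling. The split between directions moved with scaling: higher entries were 19.7% of those counted with all entries in the total, 31.1% without dre-mir-182, 35.7% with TMM, 46.5% without the 5 most abundant keratinocyte entries and 51.1% with median-of-ratios factors.

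Depth bears on both counts. Of the lower entries, 23 had at most 3 keratinocyte counts, and of the higher ones 4 had at most 3. Those 4 higher entries were under 10 CPM in whole embryo and passed the filter only through keratinocytes, as did 10 entries in all. With the whole counting interval past 4-fold, 6 entries (2.91%) were higher and 24 (11.7%) lower. The 6 include dre-mir-735, with 2 keratinocyte counts and 0, 0.859 and 0 CPM in whole embryo. Its ratio of 80.9 (9.80 to 292) has a whole-embryo value near 0, whose error the interval does not cover. Nearest to the threshold on the higher side were dre-mir-221 inside at 4.65-fold and dre-mir-182 outside at 3.27-fold, leaving out entries with 1 count or none. On the lower side dre-mir-128-1 stood inside at 4.0-fold and dre-mir-10d outside at 3.87-fold lower.

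**Figure D2:**
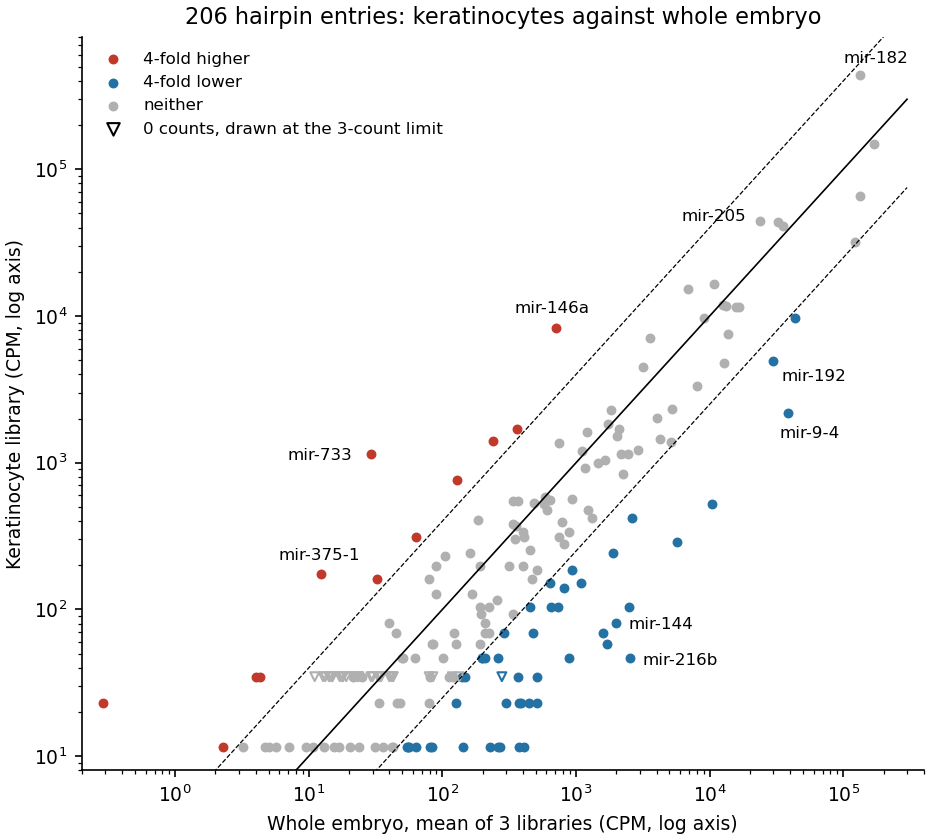
CPM of each of the 206 compared entries in the keratinocyte library (vertical, log axis) against the mean of 3 whole-embryo libraries (horizontal, log axis); the solid line marks equal values, the dashed lines 4-fold, and open triangles are entries with 0 keratinocyte counts drawn at the limit of 3 counts. Red marks the 12 higher and blue the 49 lower entries, and dre-mir-182 lies just inside the upper dashed line at 3.27-fold.

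The epithelial and sensory list held 12 entries, and all 12 had counts in keratinocytes. None of them passed the 4-fold rule in either direction with all entries in the total, beside 5.83% higher and 23.8% lower over all compared entries. Without dre-mir-182 in the total 1, dre-mir-182, passed it as higher (6.8% over all compared entries), at 5.03-fold. That value sets dre-mir-182 against the counts of all other entries, so it is not a ratio of shares like 3.27. The keratinocyte value lay above all 3 whole-embryo libraries for 6 of the 12, below all 3 for 3 and within their range for 3. Over all 206 compared entries, 40 lay above, 146 below and 20 within. Without dre-mir-182 in the totals the counts of the list were 9, 2 and 1, and those over all compared entries were not computed. The median ratio of the list was 1.20, and 1.85 without dre-mir-182 in the totals, beside the medians over all compared entries given above. The list was drawn up with results of these data already known.

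Both microRNAs taken as keratinocyte markers, dre-mir-182 and dre-mir-205, were higher in keratinocytes than in each whole-embryo library. They were taken as markers with results of these data already known, so their higher values cannot serve as a check of the sort. The entry dre-mir-205 had 44240.2 CPM (3817 counts) in keratinocytes, against 17271, 21688 and 32958 CPM in whole embryo. Its ratio was 1.85 (1.79 to 1.90), and 2.86 without dre-mir-182 in the totals. The whole-embryo value differed by library, with the highest in the second unnumbered one, and the keratinocyte value was above it.

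The miR-200 family was measured at a pair of loci. On chromosome 23, dre-mir-200b had 1368 CPM (118 counts) in keratinocytes, against 776, 846 and 611 CPM in whole embryo. Its neighbours dre-mir-200a and dre-mir-429a also lay above all 3 whole-embryo libraries, with ratios of 1.84 (1.52 to 2.20) for dre-mir-200b, 1.24 (1.07 to 1.43) for dre-mir-200a and 1.41 (1.27 to 1.56) for dre-mir-429a. On chromosome 6, dre-mir-429b, with 14 counts, had a ratio of 2.06 (1.12 to 3.45), dre-mir-200c 1.09 (0.801 to 1.46) and dre-mir-141 0.792 (0.627 to 0.987). Of these dre-mir-429b was above all 3 whole-embryo libraries, dre-mir-200c within their range and dre-mir-141 below all 3. The direction of dre-mir-141 turned with scaling, to 1.22 without dre-mir-182 in the totals, and it stood between 1.39 and 1.61 with TMM, the 5 top entries left out or median-of-ratios factors.

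Both miR-203 entries, which carry the name of the microRNA tied to keratinocyte differentiation in mammals, were lower in keratinocytes than in all 3 whole-embryo libraries. The entry dre-mir-203b (chromosome 20, 27405878 to 27405962, plus strand) had 7568 CPM (653 counts) in keratinocytes, against 12876, 15679.5 and 12357 CPM in whole embryo, a ratio of 0.555 (0.513 to 0.599). The entry dre-mir-203a (chromosome 17, 45808153 to 45808248, plus strand) had 1449 CPM (125 counts) in keratinocytes, against 3693, 5178 and 3928 CPM in whole embryo, a ratio of 0.340 (0.283 to 0.405). The lower value of dre-mir-203a held under every scaling tried, with ratios up to 0.692. That of dre-mir-203b did not: its ratio was 0.853 without dre-mir-182 in the totals, 0.978 with TMM, 1.07 without the 5 most abundant entries and 1.13 with median-of-ratios factors.

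**Figure D3:**
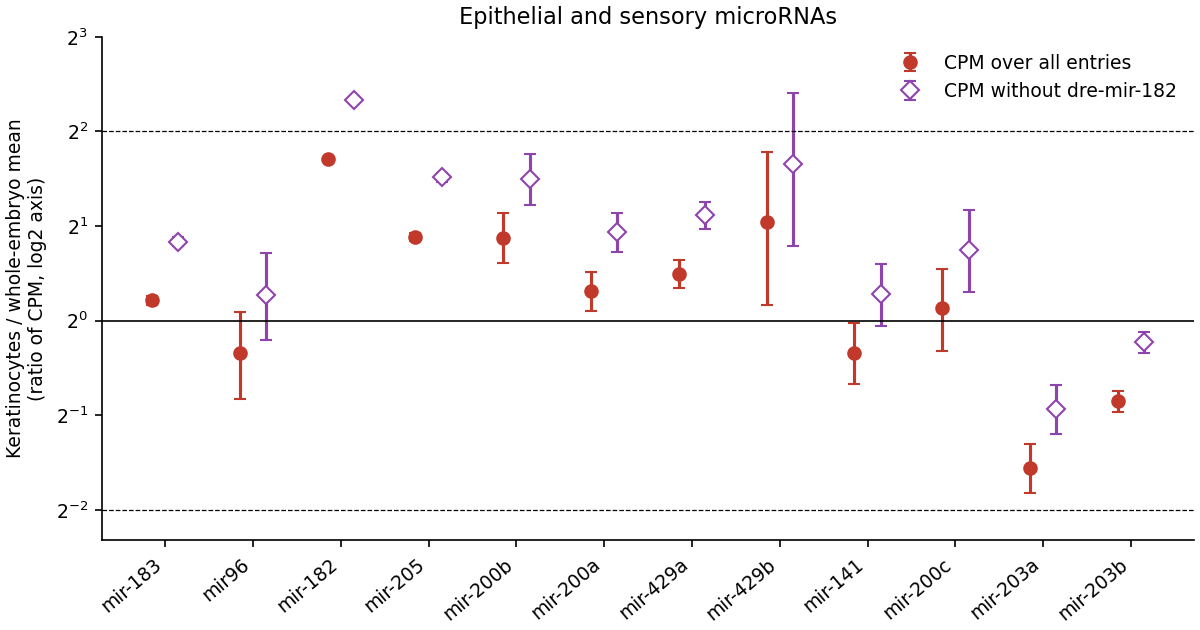
Ratio of keratinocyte CPM to the whole-embryo mean (log2 axis) for the 12 entries of the epithelial and sensory list, with exact 95% Poisson intervals of the keratinocyte count; filled circles use all entries in the total and open diamonds leave dre-mir-182 out of every total. Dashed lines mark 4-fold, and dre-mir-203a and dre-mir-203b lie below 1 in both scalings shown (dre-mir-203b is above 1 with median-of-ratios factors and without the 5 most abundant entries).

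The 3 hairpins of the miR-183 cluster lie within chromosome 4, 15074566 to 15075732, on the plus strand, and they did not move alike. The entry dre-mir-183 had 41088 CPM (3545 counts) in keratinocytes, against 42946, 42802 and 20316 CPM in whole embryo, so the keratinocyte value lay within the whole-embryo range with all entries in the total. The entry mir96 had 475 CPM (41 counts) in keratinocytes, against 658, 747 and 408 CPM in whole embryo, also within that range. Their ratios were 1.16 (1.12 to 1.20) for dre-mir-183 and 0.786 (0.564 to 1.07) for mir96, against 3.27 for dre-mir-182. Without the second unnumbered whole-embryo library the ratio of dre-mir-183 was 0.958. Under all 4 other scalings dre-mir-183 lay above every whole-embryo library, with ratios of 1.78 to 2.39, and mir96 had ratios of 1.21 to 1.61.

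The balance within the cluster does not depend on the library total. There were 10.7 counts of dre-mir-182 per count of dre-mir-183 in keratinocytes (95% exact binomial interval 10.3 to 11), against 3.23, 3.53 and 5.51 in whole embryo. The keratinocyte value was above all 3, and the whole-embryo libraries themselves were spread. In the neutrophil library of the same table, sorted from a line with GFP in neutrophils, this value was 11.1 (9.21 to 13.4). The excess of dre-mir-182 over dre-mir-183 was therefore present in both sorted libraries, although dre-mir-182 itself made up 43.8% of keratinocyte and 6.68% of neutrophil counts.

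Among the 136 entries with at least 100 CPM in either group, 8 were at least 4-fold higher in keratinocytes, beside 5.83% over all compared entries. Of the 8, dre-mir-733, dre-mir-375-1, dre-mir-31 and dre-let-7f were under 100 CPM in whole embryo and entered this set only through keratinocytes. The largest ratio was that of dre-mir-733 (chromosome 14, 2406978 to 2407072, minus strand), which had 1147 CPM (99 counts) in keratinocytes, against 18.8, 21.5 and 47.3 CPM in whole embryo. Its ratio was 39.3 (32.0 to 47.9), and every whole-embryo library was far below the keratinocyte value. Next came dre-mir-375-1, a copy of the microRNA known from pancreatic islets, with 174 CPM (15 counts) in keratinocytes, against 12.8, 7.73 and 16.1 CPM in whole embryo and a ratio of 14.2 (7.96 to 23.4). A second listed copy of miR-375, dre-mir-375-2, was under the limit for comparison, and how reads of near-identical copies were counted is not stated.

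The most abundant of the higher entries was dre-mir-146a (chromosome 13, 11822170 to 11822283, plus strand), a microRNA that NF-kB induces and that damps Toll-like receptor signalling in mammals. It had 8287 CPM (715 counts) in keratinocytes, against 956, 669 and 500.2 CPM in whole embryo, a ratio of 11.7 (10.9 to 12.6). The related dre-mir-146b had 58.0 CPM (5 counts) in keratinocytes, against 151, 129.8 and 98.0 CPM in whole embryo, a ratio of 0.459. Its keratinocyte value was below every whole-embryo library, but its counting interval reached their mean, so that direction is uncertain. There were 143 counts of dre-mir-146a per count of dre-mir-146b in keratinocytes (95% exact binomial interval 61.0 to 442), 0.313 in neutrophils, and 6.32, 5.16 and 5.11 in whole embryo. The entry dre-mir-146a was the more frequent of the pair in keratinocytes and whole embryo, and dre-mir-146b in neutrophils.

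The other 5 were smaller in size. The entry dre-mir-142a, a microRNA of blood cells, had 765 CPM (66 counts) in keratinocytes, against 149, 119 and 119.9 CPM in whole embryo, a ratio of 5.93 (4.58 to 7.54). For dre-mir-30c the values were 1414 CPM (122 counts) in keratinocytes, against 213, 178 and 328 CPM in whole embryo, a ratio of 5.90 (4.90 to 7.04). The entry dre-mir-221 had 1692 CPM (146 counts) in keratinocytes, against 414, 382 and 295 CPM in whole embryo, a ratio of 4.65 (3.93 to 5.47). All 3 lay above every whole-embryo library. With fewer counts, dre-mir-31, known from wounded and inflamed epidermis in mammals, had 162 CPM (14 counts) in keratinocytes, against 39.3, 24.1 and 34.6 CPM in whole embryo, a ratio of 4.97 (2.72 to 8.34). The entry dre-let-7f had 313 CPM (27 counts) in keratinocytes, against 64.1, 82.5 and 43.8 CPM in whole embryo, a ratio of 4.93 (3.25 to 7.17). These intervals reach below 4 for dre-mir-221, dre-mir-31 and dre-let-7f. The 4 higher entries under 100 CPM were dre-mir-735, dre-mir-204-1, MIR23B and a let-7a entry on chromosome 6, with 2, 3, 3 and 1 keratinocyte counts, and the intervals of the last 3 reach below 4. The ratio of that let-7a entry, 5.08, was 3.39 without the second unnumbered whole-embryo library.

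MicroRNAs that mark other cell types were read beside these results. For the myeloid markers miR-223 and miR-142, the summed level over 3 entries was 1008 CPM in keratinocytes, against 275, 278 and 239.7 CPM in whole embryo. Of these 3, only dre-mir-142a was 4-fold higher. The entry mir223 had 232 CPM (20 counts) in keratinocytes, against 94.0, 125 and 93.4 CPM in whole embryo, a ratio of 2.23 (1.36 to 3.44). The entry dre-mir-142b had 11.6 CPM (1 count) in keratinocytes, against 32.5, 34.4 and 26.5 CPM in whole embryo. In the neutrophil library the 3 entries summed to 144795 CPM, far above keratinocytes and whole embryo. The part of blood cells in the higher values of dre-mir-146a and dre-mir-142a was not tested.

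Within the list of leukocyte microRNAs, 3 of 11 compared entries were higher in keratinocytes and 0 lower, beside 5.83% and 23.8% over all compared entries. The list had a median ratio of 1.61 (0.952 with entries at 0 counts set to 0), and 2.47 without dre-mir-182 in the totals. The higher ones were dre-mir-146a, dre-mir-142a and dre-mir-221, and dre-mir-221 is also known from endothelial and other cells. The summed level of the list was 24189 CPM in keratinocytes, against 14061, 13511 and 17924 CPM in whole embryo, with dre-mir-222a as the largest member. That entry had 11903 CPM (1027 counts) in keratinocytes, against 11122, 11108 and 15293 CPM in whole embryo, within the range of whole embryo.

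In the erythroid, muscle and endothelial lists, 2 of 2, 3 of 7 and 1 of 2 compared entries were lower in keratinocytes and none higher, beside 23.8% lower over all compared entries. The erythroid hairpins dre-mir-144 and dre-mir-451, neighbours on chromosome 5, were both 4-fold lower. The entry dre-mir-144 had 81.1 CPM (7 counts) in keratinocytes, against 1739.8, 2139 and 2073 CPM in whole embryo, 24.5-fold lower (11.9 to 60.8), and dre-mir-451 had 23.2 CPM (2 counts) in keratinocytes, against 279, 359 and 260.5 CPM in whole embryo, 12.9-fold lower (3.58 to 107). The summed muscle list, with miR-1, miR-133, miR-206 and their relatives, was 58.0 CPM in keratinocytes, against 972, 1249 and 756 CPM in whole embryo. The 3 lower muscle entries were led by dre-mir-133c at 32.1-fold (5.77 to 1269.7, 1 count) and dre-mir-133b at 19.1-fold (5.28 to 158, 2 counts). The muscle list had a median ratio of 0.812 (0.0311 with entries at 0 counts set to 0), and 1.25 without dre-mir-182 in the totals. Of these entries 3 had 0 keratinocyte counts and were too low in whole embryo for the rule. The entry mir206-2 had 11.6 CPM (1 count) in keratinocytes, against 12.8, 18.9 and 6.92 CPM in whole embryo, within the range of whole embryo. Of the endothelial pair, dre-mir-126a had 151 CPM (13 counts) in keratinocytes, against 1148, 1130.0 and 975 CPM in whole embryo, 7.20-fold lower (4.21 to 13.5). Its ratio of 0.139 was 0.269 without the 5 top entries and 0.283 with median-of-ratios factors, and it then did not pass. The entry dre-mir-126b had 81.1 CPM (7 counts) in keratinocytes, against 216, 211 and 197 CPM in whole embryo, 2.56-fold lower (1.24 to 6.37), which did not reach the threshold.

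Neural microRNAs gave the largest group of lower entries. Of 29 compared entries of that list, 13 were lower and 0 higher, and 9 were lower without dre-mir-182 in the totals, beside 23.8% and 15% over all compared entries. The list had a median ratio of 0.322 (0.0603 with entries at 0 counts set to 0), and 0.495 without dre-mir-182 in the totals. None of the 6 listed miR-124 entries, the microRNA of differentiated neurons, had a keratinocyte count, and in whole embryo the highest of them, dre-mir-124-6, had 56.4, 84.2 and 98.0 CPM. The 7 hairpins of miR-9, a microRNA of neural progenitors, summed to 2689 CPM in keratinocytes, against 52086, 46243 and 48940.2 CPM in whole embryo. That sum was 18.3-fold lower (16.1 to 20.9) in keratinocytes. Most of it came from dre-mir-9-4, with 2167 CPM (187 counts) in keratinocytes, against 41003, 36293 and 38753 CPM in whole embryo. The neuronal miR-153 hairpins behaved in the same way: dre-mir-153a was 23.9-fold (12.6 to 52.3), dre-mir-153b 29.6-fold (12.7 to 91.2) and dre-mir-153c 19.6-fold lower (13.3 to 30.2). At 0 keratinocyte counts, dre-mir-218b, a motor neuron microRNA, was at least 8.0-fold lower, with 319.6, 296 and 219 CPM in whole embryo. In the list 3 entries lay above all 3 whole-embryo libraries and 24 below, beside 40 and 146 of the 206 compared entries. Each of the 3 above rested on at most 3 keratinocyte counts: dre-mir-137-2 with a ratio of 2.48 (0.0627 to 13.8), dre-mir-7a-1 with 2.29 (0.0580 to 12.8) and dre-mir-181b-1 with 1.62 (0.334 to 4.73). The most abundant neural entry in keratinocytes was dre-mir-181c, with 9701 CPM (837 counts) in keratinocytes, against 8149, 7957 and 11248 CPM in whole embryo and a ratio of 1.06 (0.993 to 1.14).

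Of 8 compared entries of the liver, pancreas and gut list, 5 were lower and 1, dre-mir-375-1, was higher, beside 23.8% and 5.83% over all compared entries. Without dre-mir-182 in the totals 4 were lower. The list had a median ratio of 0.157, and 0.242 without dre-mir-182 in the totals. The entry deposited under the name of the liver microRNA, dre-mir-122, had 69.5 CPM (6 counts) in keratinocytes, against 218, 241 and 213 CPM in whole embryo, but the symbol table gives its gene ID another microRNA's symbol, so its identity is uncertain. The pancreatic dre-mir-216b had the largest difference of all lower entries, with 46.4 CPM (4 counts) in keratinocytes, against 2859, 2348 and 2412 CPM in whole embryo, 54.8-fold lower (21.4 to 201). Its neighbours dre-mir-216a and dre-mir-217 were 6.81-fold (3.13 to 18.6) and 23.2-fold lower (4.16 to 916, 1 count). The intestinal dre-mir-192 had 4961 CPM (428 counts) in keratinocytes, against 33815, 35321 and 19848 CPM in whole embryo, 5.98-fold lower (5.44 to 6.59). That call was lost without dre-mir-182 in the totals, where dre-mir-192 was 3.90-fold lower. In the neutrophil library dre-mir-192 had 38727 CPM, above every whole-embryo library, so a high value is not particular to gut here. Its neighbour dre-mir-194a had 11.6 CPM (1 count) in keratinocytes, against 444, 478 and 296 CPM in whole embryo, 35.0-fold lower (6.29 to 1384).

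**Figure D4:**
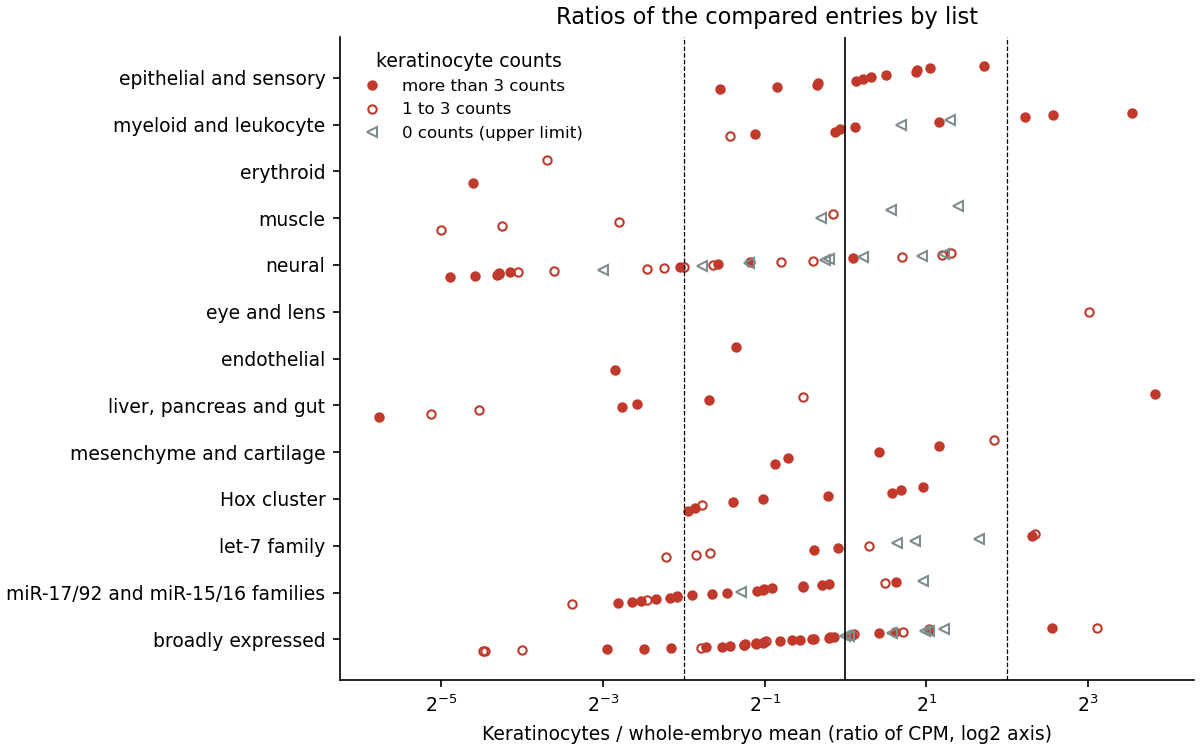
Ratio of keratinocyte CPM to the whole-embryo mean (log2 axis) for the compared entries of each list, one row per list; filled circles rest on more than 3 keratinocyte counts, open circles on 1 to 3, and open triangles are upper limits for entries with 0 counts. Both erythroid entries and 13 of the 29 neural ones lie beyond the lower dashed line, which marks 4-fold, and 0 of the 12 epithelial ones. Over all compared entries 23.8% were lower by the rule.

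The mesenchymal list held values above and below whole embryo. None of its 5 compared entries passed the rule in either direction, beside 5.83% higher and 23.8% lower over all compared entries. The list had a median ratio of 1.34, and 2.06 without dre-mir-182 in the totals. Without dre-mir-182 in the totals 1, mir29a-1, passed as higher, beside 6.8% over all compared entries. That entry had a whole-embryo mean of 3.24 CPM and passed the 10 CPM filter only through its 1 keratinocyte count. The cartilage microRNA mir140 (chromosome 25, 34791362 to 34791466, plus strand) had 15357 CPM (1325 counts) in keratinocytes, against 6321, 7476 and 6778 CPM in whole embryo, a ratio of 2.24 (2.12 to 2.36). The smooth muscle microRNA dre-mir-143 had 43568 CPM (3759 counts) in keratinocytes, against 31829, 36429.7 and 29520.4 CPM in whole embryo, a ratio of 1.34 (1.29 to 1.38). Both lay above all 3 whole-embryo libraries, under 4-fold. The ratio of mir140 was 4.33 without the 5 top entries and 4.55 with median-of-ratios factors, past the threshold. The microRNA named in the title of the series, miR-199, was represented by dre-mir-199-3, with 568 CPM (49 counts) in keratinocytes, against 1045, 951 and 799.8 CPM in whole embryo. Its name is carried by other listed hairpins, and how reads were shared among them is not stated. The highest ratio of the list was that of mir29a-1, 3.58 from 1 keratinocyte count (0.0906 to 19.9). It was 5.48 without dre-mir-182 in the totals and 6.21 without whole-embryo replicate 1, and 2.71 without the second unnumbered library.

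Hox cluster microRNAs, the miR-10 and miR-196 families, were the most abundant group of whole embryo. They summed to 25.3% of keratinocyte counts, against 43.5%, 41.4% and 44.8% in whole embryo. These sums have dre-mir-182 in the totals, whose 43.8% of keratinocyte counts lowers the keratinocyte sum, and they were not computed without it. None of the 9 compared entries passed the rule, beside 5.83% higher and 23.8% lower over all compared entries. Their median ratio was 0.492, and 0.757 without dre-mir-182 in the totals, but the members differed among themselves. The entry dre-mir-10d had 31769 CPM (2741 counts) in keratinocytes, against 122140, 119413 and 127266 CPM in whole embryo, 3.87-fold lower (3.73 to 4.02). In contrast, dre-mir-10b-1 had 7035 CPM (607 counts) in keratinocytes, against 3431, 3618 and 3761 CPM in whole embryo, a ratio of 1.95 (1.80 to 2.11). The ratio of dre-mir-10a was 0.492 (0.479 to 0.505), and 1.00 with median-of-ratios factors. For dre-mir-10c it was 0.864 (0.849 to 0.879), and it turned to 1.33 without dre-mir-182 in the totals.

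The miR-17/92 and miR-15/16 families held 24 compared entries. Of these 9 were lower (23.8% over all compared entries) and 0 higher, and 3 were lower without dre-mir-182 in the totals, a share below the 15% over all entries. They had a median ratio of 0.387 (0.293 with entries at 0 counts set to 0), and 0.594 without dre-mir-182 in the totals. The lowest ratio was that of dre-mir-18a, 10.5-fold lower (3.59 to 50.8) with 3 counts. The entry dre-mir-92b had 9620.0 CPM (830 counts) in keratinocytes, against 35660.5, 29974 and 64286 CPM in whole embryo, 4.50-fold lower (4.21 to 4.82). Without dre-mir-182 in the totals it was 2.90-fold lower and no longer passed, and without the second unnumbered whole-embryo library its ratio was 0.293, also short of the rule. The entry dre-mir-25 ran the other way, with 16505 CPM (1424 counts) in keratinocytes, against 9227, 11932 and 10975 CPM in whole embryo and a ratio of 1.54 (1.46 to 1.62).

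Of 11 compared let-7 entries, 2 were higher and 1 lower, beside 5.83% and 23.8% over all compared entries. Of the 2 higher, the let-7a entry on chromosome 6 had 1 keratinocyte count (ratio interval 0.129 to 28.3) and passed the filter only through keratinocytes. The lower one was dre-let-7a-3, 4.67-fold from 1 keratinocyte count (0.839 to 185, which spans 1), and it no longer passed without dre-mir-182 in the totals, where its ratio was 0.330. The list had a median ratio of 1.23 (0.313 with entries at 0 counts set to 0), and 1.88 without dre-mir-182 in the totals. The whole family summed to 568 CPM in keratinocytes, against 658, 668 and 389.5 CPM in whole embryo, so the summed keratinocyte level lay within the whole-embryo range. Among 42 compared entries of broadly expressed families, 2 were higher and 6 lower, shares of 4.76% and 14.3% beside 5.83% and 23.8% over all compared entries. Of the 2 higher, MIR23B had 3 keratinocyte counts and passed the filter only through keratinocytes. Without dre-mir-182 in the totals 4 were lower, and the list had a median ratio of 0.716 (0.479 with entries at 0 counts set to 0), and 1.10 without dre-mir-182 in the totals. Within the miR-30 family dre-mir-30c was higher while dre-mir-30a had 23.2 CPM (2 counts) in keratinocytes, against 534, 502 and 501 CPM in whole embryo, 22.1-fold lower (6.12 to 183). The entry dre-mir-125b-3 had 1 keratinocyte count and was 22.4-fold lower (4.02 to 885). The most abundant broad entry was dre-mir-27b, with 11625 CPM (1003 counts) in keratinocytes, against 15626, 13096 and 11232 CPM in whole embryo. Of 43 compared entries in no list, 3 were higher and 9 lower, shares of 6.98% and 20.9%, and 5 were lower without dre-mir-182 in the totals. Among those lower at 100 CPM or more was dre-mir-190b, with 69.5 CPM (6 counts) in keratinocytes, against 1578, 2409 and 787 CPM in whole embryo, 22.9-fold lower (10.5 to 62.4). The eye and lens list had 1 compared entry, dre-mir-204-1, which passed the filter only through keratinocytes, with 3 counts. So did dre-mir-735, among the 3 higher entries in no list, with 2 counts.

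Hairpins on 1 strand within 10 kb of each other were compared, since they may share a transcript. There were 31 such groups with at least 2 compared entries. On chromosome 9, dre-mir-221 and dre-mir-222a differed: there were 0.142 counts of dre-mir-221 per count of dre-mir-222a in keratinocytes (95% exact binomial interval 0.119 to 0.169), against 0.0372, 0.0344 and 0.0193 in whole embryo. For dre-mir-143 per dre-mir-145 on chromosome 14 it was 418 (219.8 to 914) in keratinocytes, against 169, 159 and 193 in whole embryo. The first pair was out of balance beyond counting error, and the second is limited by 9 keratinocyte counts of dre-mir-145. On chromosome 14 the ratios within 1 group ran over dre-mir-93 at 0.142 (0.0648 to 0.269), dre-mir-19d at 0.498 (0.345 to 0.696) and dre-mir-25 at 1.54. A second group on that chromosome, with mir363, dre-mir-19c, dre-mir-20b and dre-mir-18c, had ratios of 0.160, 0.173, 0.363 and 0.198, all under 1.

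**Figure D5:**
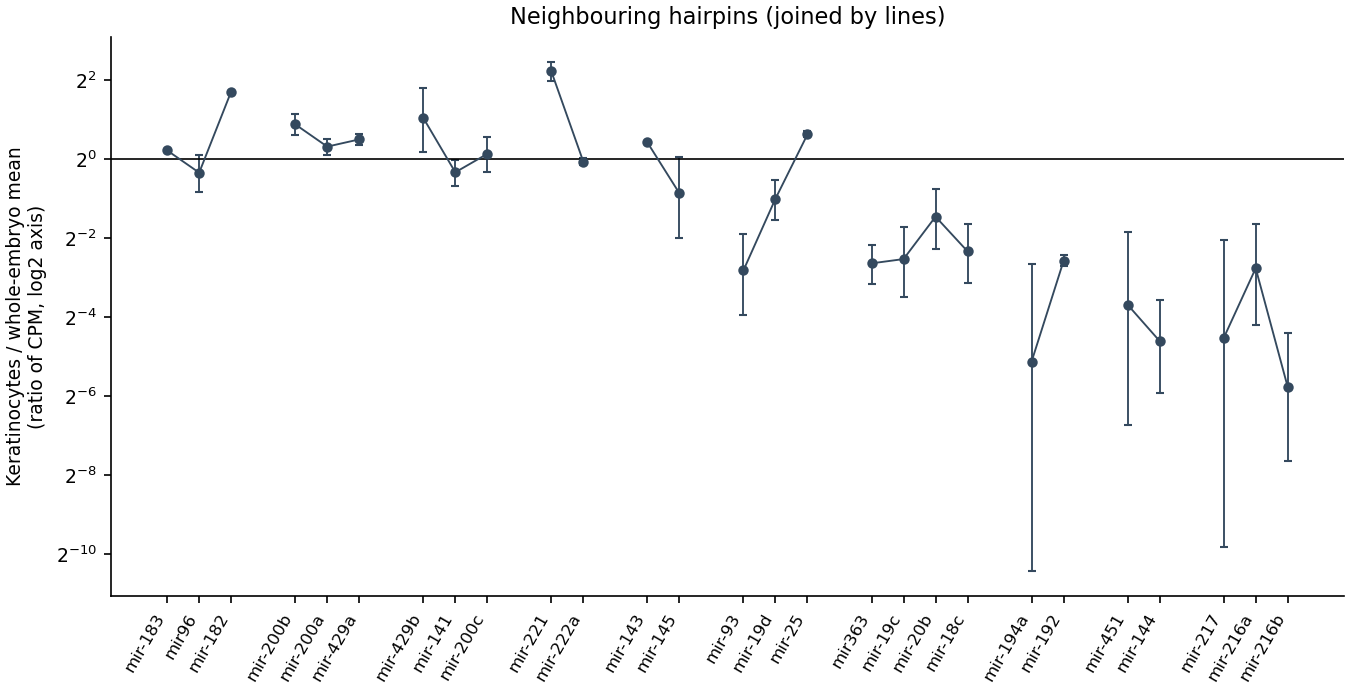
Ratio of keratinocyte CPM to the whole-embryo mean (log2 axis) for neighbouring hairpins in 10 genomic groups; lines join the hairpins of a group in genome order and bars are exact 95% Poisson intervals of the keratinocyte count. The group of dre-mir-183, mir96 and dre-mir-182 runs from 0.786 to 3.27, whereas the 3 hairpins of the chromosome 23 miR-200 group lie between 1.24 and 1.84.

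Set beside the neutrophil library, which held 20864 counts, several keratinocyte values were met or passed. The entry dre-mir-205 made up 4.42% of keratinocyte and 9.35% of neutrophil counts. In contrast, the miR-200, miR-141, miR-429 and miR-203 entries summed to 18765 CPM in keratinocytes, 5320.2 CPM in neutrophils and 24218, 29612 and 22328 CPM in whole embryo. The neutrophil library was thus above keratinocytes for dre-mir-205 and below them for the other epithelial microRNAs. The entry dre-mir-733 had 1147 CPM in keratinocytes and 1582 CPM in neutrophils, both above all whole-embryo libraries. In neutrophils dre-mir-221 had 2636 CPM and dre-mir-25 33167 CPM, above their keratinocyte values of 1692 and 16505 CPM. The neutrophil values of dre-mir-146a (4889 CPM) and mir140 (13995 CPM) were below keratinocytes but above every whole-embryo library. By contrast, dre-mir-375-1 and dre-mir-31 had 0 CPM in neutrophils, where 3 counts equal 144 CPM. Each sorted cell type is 1 library, so these are differences between libraries.

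The counts of hairpins with several listed copies are uncertain. Entries whose microRNA name is carried by 1 listed hairpin numbered 161 and took 97.3% of keratinocyte counts and 92.2% of the mean whole-embryo counts. The 169 entries with 2 or more listed hairpins took 2.64% and 7.75%. Both copies of the muscle microRNA miR-1 had 0 keratinocyte counts, and dre-mir-1-2 had 51.3, 40.4 and 36.9 CPM in whole embryo. The value of such an entry need not be the level of its microRNA.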

How the data were processed

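Small RNA was sequenced from sorted keratinocytes (1 library) and whole embryos (3 libraries); a neutrophil library of the same table was set beside them. The values are raw counts per hairpin entry in the table deposited by the authors, with no normalization and no separation of mature arms. Per the labels' protocols, total RNA was extracted with a mirVANA kit, and TruSeq small RNA libraries were cut from a gel band. The submitters' processing notes name STAR 2.5, featureCounts of Subread 1.5.1 and edgeR 3.20.8, and the GRCz11 build, without roles. How reads matching several hairpins were counted is not given in the sources used here. Messenger RNA files were not used.

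CPM was taken over all entries, and again without dre-mir-182. Entries of 10 CPM or more in either group were compared by ratio, with exact Poisson intervals (95%); a count of 0 was set to 3 counts. No test was run, and every count column was assigned to a group. The 2 unnumbered whole-embryo columns served as replicates without a number. Whether the whole-embryo samples came from separate clutches is not stated. The calls were tested on simulated counts with Poisson error only. That simulation left out the spread among whole-embryo libraries and the effect of a dominant entry on the total, so it cannot speak to either. Named entries were the epithelial list, the 10 most abundant of each group, the 10 highest and 10 lowest ratios at 100 CPM, and the extremes of each list, with their genomic neighbours; a few others were chosen after their values were seen. Members and lists were chosen with earlier results of these data known. The symbol table matched 329 of 431 gene IDs and was used only for entries without a microRNA name. Tools were Python 3.11.15, scipy 1.17.1, R 4.3.3, edgeR 4.0.16 (TMM factors) and DESeq2 1.42.0 (median of ratios).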

Additional observations from a re-analysis of the deposited data

How the results depend on the processing

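Scaling moved the counts of entries 4-fold apart. With 12 higher and 49 lower entries over all counts, there were 14 and 31 without dre-mir-182 in the totals, 15 and 27 with TMM, 23 and 22 with median-of-ratios factors, and 20 and 23 without the 5 most abundant entries. These scalings shift all ratios, by 0.62, 0.82, 1.03 and 0.95 on the log2 scale at the median. With the whole counting interval past the fold there were 6 higher and 24 lower, and with 2-fold in place of 4-fold 23 and 93. On the log2(CPM + 1) scale 12 were higher and 80 lower, since entries at 0 counts then enter as 1 CPM. Leaving out 1 whole-embryo library at a time gave 11 to 13 higher and 47 to 49 lower. With no filter there were 12 higher and 49 lower among 269 entries. These 2 counts could not change, since 1 keratinocyte count already passes 10 CPM and an entry at 0 needs 139 CPM. With a filter at 100 CPM there were 8 and 43 among 136 entries, and with hairpin copies summed 11 and 44 among 177. Of 57 named entries, none that passed 4-fold changed direction under the scalings or the whole-embryo library left out, and 10 others crossed a ratio of 1. No paired analysis was possible because the keratinocyte group has 1 library and nothing was tested. Depth limits the lower calls: an entry with 0 keratinocyte counts needs 139 CPM in whole embryo to be counted, which 119 of 206 entries reached.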

Other observations

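The whole-embryo libraries disagreed for a few entries that were low in keratinocytes. The entry dre-mir-726 had 34.8 CPM (3 counts) in keratinocytes, against 625, 750.2 and 157 CPM in whole embryo, and dre-mir-729 had 0 counts in keratinocytes, against 174, 199 and 26.5 CPM in whole embryo. In both, the second unnumbered library held far less than the other whole-embryo libraries, and for dre-mir-729 it lay under the keratinocyte limit of 34.8 CPM. These entries were chosen after their values were seen.

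The 2 pairs of related hairpins at separate loci also differed in balance. There were 5.22 counts of dre-mir-203b per count of dre-mir-203a in keratinocytes (95% exact binomial interval 4.31 to 6.38), against 3.49, 3.03 and 3.15 in whole embryo. In neutrophils this value was 3.83 (2.00 to 7.95), an interval that overlaps that of keratinocytes. For dre-mir-142a per dre-mir-142b it was 66.0 (11.4 to 2646) in keratinocytes, 3.15 (2.44 to 4.12) in neutrophils, and 4.58, 3.45 and 4.52 in whole embryo. The keratinocyte value of the second pair rests on 1 count of dre-mir-142b.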
